A study of Homo sapiens
Mus musculus with 2 samples.

Results

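Cytochromes P450 are haem enzymes that insert oxygen into their substrates with electrons from NADPH. Families 1 to 4 hold most of the enzymes that oxidise drugs, plant compounds and other foreign chemicals, and many that oxidise arachidonic acid, leukotrienes and other fatty acids. Transcription of these genes is governed by ligand-activated factors such as the aryl hydrocarbon receptor, the pregnane X receptor and the constitutive androstane receptor. In the intestine they are best known from enterocytes, where they meet compounds taken up with food before these reach the liver.

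Of the 25504 genes in the tables, 63 have the symbol of a P450 gene of families 1 to 4, and the 55 of them with at least 5 unique molecular identifiers (UMIs, each marking 1 captured molecule) over both libraries are described here. Among these symbols they were selected on this total, a count over all cells. The closest genes outside it, Cyp2b13, Cyp2c54 and Cyp2j11, had 4 UMIs each, and the closest inside, Cyp2c37 and Cyp2c40, had 5 and 6 UMIs. The 55 genes held 9611 UMIs and belong to 19 subfamilies, of which Cyp2c has 11 members, Cyp2d and Cyp4f have 8 each, Cyp3a has 5 and Cyp2j has 4. Members of a subfamily can be close to each other in sequence and lie side by side in the genome. The counting method is not given in the sources used here, so reads may be shared between paralogs, and the split of UMIs within Cyp2c, Cyp2d, Cyp3a and Cyp4f is uncertain.

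The cells came from the colonic epithelium of 1 wild-type (WT) C57Bl6 mouse without treatment, and were released with EDTA and with collagenase and DNase before viable cells were enriched on magnetic columns. K562, an established human leukaemia line, was spiked into the suspension, which was barcoded in inDrop droplets and amplified by CEL-Seq, a method that counts transcripts as UMIs. Both libraries, replicates 1 and 2, hold different cells of that mouse, so that there is 1 group and no comparison of conditions. Comparisons were made between cell classes, and their p-values cover only the spread between 2 libraries of 1 animal, which may be technical.

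Replicate 1 had 1738 barcodes with 8602490 UMIs and replicate 2 had 664 barcodes with 3951918 UMIs, with medians of 4615.5 and 4756.5 UMIs per barcode. Genes other than P450s were used to cluster 1651 and 630 barcodes, and 4 epithelial classes were named from their markers. Colonocyte-like cells (absorptive, 545 and 179 barcodes) formed 2 clusters, goblet-like cells (mucus-secreting, 272 and 72) formed 1, and deep crypt secretory-like cells (Reg4-positive cells of the crypt base, 277 and 79) formed 1. Crypt cells (265 and 75) joined 2 clusters with stem cell and cell division markers. Colonocyte markers, which served to name the clusters, summed to 33010 and 25271 CPM (UMIs of a sum scaled to 1000000) in colonocyte-like cells, against 1574 to 8096 CPM in the other 3 classes. Of the remaining barcodes, 450 stayed unnamed, 55 were T cell-like and 12 were tuft-like. In crypt cells of replicate 2 the 4 mast cell markers summed to 1599 CPM, against 12 to 48.9 CPM in all other sums of the 4 classes, and their part in the crypt values was not tested.

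P450 transcripts were concentrated in colonocyte-like cells. All 55 members together stood at 1556 and 1281 CPM in colonocyte-like cells, against 357 and 513 CPM in goblet-like, 263 and 352 CPM in deep crypt secretory-like and 302 and 344 CPM in crypt cells. The T cell-like cluster had 32 UMIs of 18 members, or 303 CPM. This cluster is not pure: its leading gene is Igha, and its 7 B and plasma cell markers summed to 60148 CPM in replicate 1 and 125 CPM in replicate 2, beside T cell markers at 17327 and 9278 CPM. Summed levels in the deep crypt secretory-like and crypt classes lay near that of this cluster, and the part of free RNA in low values was not tested. Of the 55 members, 33 had the 20 UMIs over the class sums that the test asked for. A gene with fewer than 20 UMIs outside the class where it was high passed only through that class. Counts of calls include such genes. Outside colonocyte-like cells, Cyp2c55 and Cyp2d9 had 11 UMIs each, Cyp2d26 had 10 and Cyp2d12 had 18. Cyp4f18 and Cyp4f40 were also under 20 outside these cells. Cyp1a1 had 8 UMIs outside goblet-like cells and Cyp2c50 had 16 outside crypt cells. The comparison of each class with the mean of the other 3 on the log2 scale used edgeR's quasi-likelihood test, with the library as a block and Benjamini-Hochberg adjustment over 8059 genes, and a call is an adjusted p under 0.05.

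**Figure D1:**
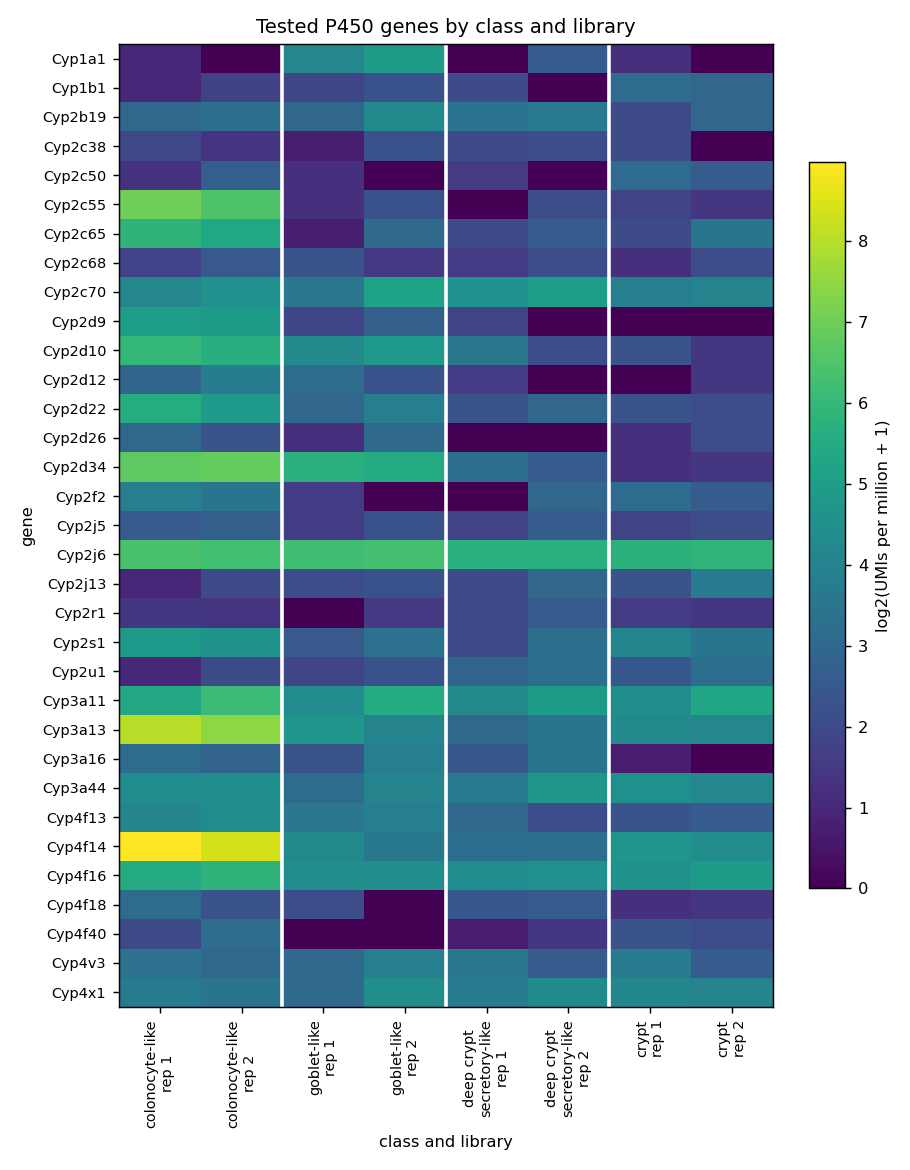
Level of each of the 33 tested P450 genes as log2(CPM + 1), with 1 column per class and library and genes in order of family. The colonocyte-like columns are the brightest for Cyp4f14 (502 and 333 CPM), Cyp3a13, Cyp2c55 and Cyp2d34, and Cyp1a1 is brightest in the goblet-like columns (16.9 and 30.1 CPM).

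In colonocyte-like cells 20 of the 33 tested members were higher than in the other classes and 0 were lower, or 60.6% called, against 40.3% of all tested genes, 20.9% called higher and 19.4% lower. The median log2 difference was 1.41 over the 33 members and 0.00 over all tested genes, and was 1.24 over the members when 13 genes with 3 or fewer UMIs in a class were entered at their pooled ratio.

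Among the family 4 enzymes, Cyp4f14, which hydroxylates leukotriene B4 in mice, had 502 and 333 CPM in colonocyte-like cells, against 18.3 and 11.3 CPM in goblet-like, 8.47 and 8.54 CPM in deep crypt secretory-like and 24.8 and 20.3 CPM in crypt cells. Its log2 difference was 5.19 ± 0.15 (SE, adjusted p = 1.53e-63 by edgeR), and every colonocyte-like value lay above every other. In barcodes thinned to 1500 UMIs, Cyp4f14 was seen in 44.6% of colonocyte-like cells of replicate 1 (95% Clopper-Pearson interval 40.1% to 49.1%) and in 34.3% of replicate 2 (27.2% to 42.0%). Without thinning these shares were 70.5% and 72.6%, where the median barcode held 4764 and 6361 UMIs. It was seen in 0 of 29 thinned T cell-like cells of replicate 1 and 0 of 7 of replicate 2, which allows shares of up to 10.3% and 42.9%; their median depths were 1676 and 2095.5 UMIs.

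The other called Cyp4f genes differed by less. Cyp4f16 had 45.0 and 56.8 CPM in colonocyte-like cells, against 20.3 and 20.7 CPM in goblet-like, 19.5 and 22.2 CPM in deep crypt secretory-like and 22.8 and 30.5 CPM in crypt cells, a log2 difference of 1.41 ± 0.20 (SE). Cyp4f13 had 16.2 and 19.7 CPM in colonocyte-like cells, against 10.8 and 13.2 CPM in goblet-like, 7.17 and 3.41 CPM in deep crypt secretory-like and 3.91 and 5.08 CPM in crypt cells (log2 difference 1.63 ± 0.32). The groups of both genes did not overlap. Cyp4f18, a leukotriene B4 hydroxylase known from mouse neutrophils, and Cyp4f40 were called higher too, with pooled ratios of 2.37 (95% interval 1.26 to 4.54) and 2.89 (1.28 to 6.96) over all other cells of the 4 classes. The Cyp4f18 call was lost with DESeq2. Pooled ratios are ratios of CPM from summed UMIs, used where a class had 3 or fewer UMIs, and their exact intervals cover counting error only. Summed over its 8 members, Cyp4f stood at 579 and 426 CPM in colonocyte-like cells, and between 43.0 and 64.3 CPM in the other classes.

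In family 3, whose enzymes oxidise a wide range of drugs and steroids, Cyp3a13 had 256 and 173 CPM in colonocyte-like cells, against 24.4 and 15 CPM in goblet-like, 7.17 and 10.2 CPM in deep crypt secretory-like and 18.3 and 16.9 CPM in crypt cells. The log2 difference was 4.23 ± 0.17 (SE, adjusted p = 3.24e-48 by edgeR). Cyp3a11, a main drug-oxidising P450 of mouse liver and a target of the pregnane X receptor, had 41.8 and 68.6 CPM in colonocyte-like cells, against 19.6 and 45.1 CPM in goblet-like, 17.6 and 29.0 CPM in deep crypt secretory-like and 20.2 and 38.9 CPM in crypt cells. Its log2 difference was 1.27 ± 0.20, the groups overlapped between libraries but not within one, and T cell-like cells were at 56.9 CPM (6 UMIs, exact Poisson interval 20.9 to 124), no lower than the colonocyte-like 50.1 CPM over both libraries. Cyp3a44 had 19.7 and 21.3 CPM in colonocyte-like cells, against 8.13 and 15 CPM in goblet-like, 12.4 and 25.6 CPM in deep crypt secretory-like and 21.5 and 16.9 CPM in crypt cells. Its call (log2 difference 0.68 ± 0.27, adjusted p = 0.0324 by edgeR) was lost with DESeq2, without the block, with thinned sums and without the doublet filter, and the groups overlapped. Cyp3a16 was called higher with a pooled ratio of 1.75 (1.01 to 3.04), a call lost with DESeq2 and with thinned sums.

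Within Cyp2c, a subfamily with arachidonic acid epoxygenases and hydroxylases, Cyp2c55 had 127 and 90.7 CPM in colonocyte-like cells, against 1.35 and 3.76 CPM in goblet-like, 0 and 3.41 CPM in deep crypt secretory-like and 2.61 and 1.69 CPM in crypt cells. Its pooled ratio was 65.8 (36.4 to 133), from 476 UMIs in colonocyte-like cells and 11 in the other 3 classes. Cyp2c65 had 55.9 and 41.0 CPM in colonocyte-like cells, against 0.677 and 7.52 CPM in goblet-like, 3.26 and 5.12 CPM in deep crypt secretory-like and 3.26 and 10.2 CPM in crypt cells. The log2 difference of Cyp2c65 was 3.99 ± 0.29 (SE) with both libraries, 2.71 without replicate 1 and 5.13 without replicate 2. Cyp2c70, which makes muricholic acids from bile acids in mouse liver, was not called in colonocyte-like cells, with 16.9 and 22.1 CPM in them, against 10.8 and 35.7 CPM in goblet-like, 22.1 and 30.7 CPM in deep crypt secretory-like and 13.7 and 15.2 CPM in crypt cells.

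The 8 members of Cyp2d summed to 264 and 241 CPM in colonocyte-like cells, against 88.0 and 107 CPM in goblet-like, 29.3 and 17.1 CPM in deep crypt secretory-like and 10.4 and 11.8 CPM in crypt cells, and the sums of the classes did not overlap. Cyp2d34 had 107 and 114 CPM in colonocyte-like cells, against 51.5 and 45.1 CPM in goblet-like, 8.47 and 5.12 CPM in deep crypt secretory-like and 1.30 and 1.69 CPM in crypt cells. Its pooled ratio in colonocyte-like cells was 5.75 (4.69 to 7.10). Cyp2d10 had 62.6 and 48.9 CPM in colonocyte-like cells, against 17.6 and 28.2 CPM in goblet-like, 11.1 and 3.41 CPM in deep crypt secretory-like and 3.91 and 1.69 CPM in crypt cells (log2 difference 3.03 ± 0.24). Cyp2d22, studied as a mouse counterpart of the human drug-metabolising CYP2D6, had 46.4 and 27.6 CPM in colonocyte-like cells, against 6.77 and 13.2 CPM in goblet-like, 3.91 and 6.83 CPM in deep crypt secretory-like and 3.91 and 3.38 CPM in crypt cells. Its log2 difference was 3.13 ± 0.28 (SE) and 2.25 without replicate 1. Cyp2d9 had 32 and 29.2 CPM in colonocyte-like cells, against 2.71 and 5.64 CPM in goblet-like, 2.61 and 0 CPM in deep crypt secretory-like and 0 CPM in crypt cells of both libraries. Cyp2d12 and Cyp2d26 were called higher with pooled ratios of 2.96 (1.63 to 5.55) and 3.8 (1.76 to 8.87). Each of the 6 tested Cyp2d genes was thus called higher in colonocyte-like cells; the sharing of reads among these paralogs was not tested.

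**Figure D2:**
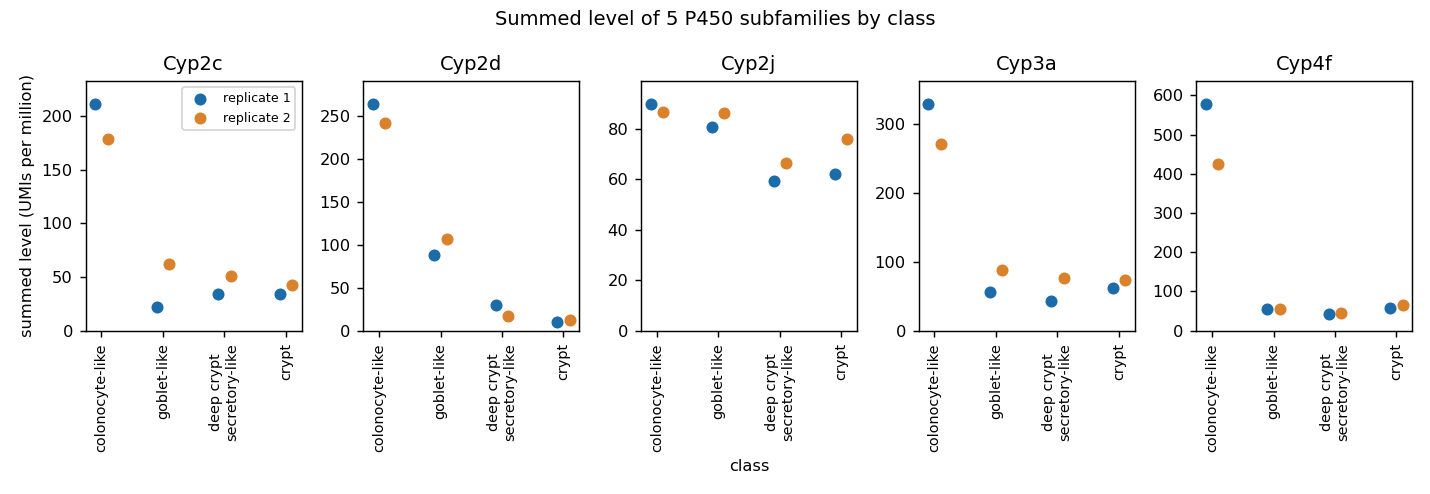
Summed CPM of the members of Cyp2c, Cyp2d, Cyp2j, Cyp3a and Cyp4f in each class, with 1 point per library. Cyp2d steps down through the 4 classes, Cyp4f is high in colonocyte-like cells (579 and 426 CPM) and similar in the other 3, and Cyp2j differs little between classes.

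Cyp2s1, Cyp2f2 and Cyp2j6, further members of family 2, were called higher in colonocyte-like cells. Cyp2s1, a P450 of epithelia outside the liver, had 27.4 and 23.7 CPM in colonocyte-like cells, against 4.74 and 9.39 CPM in goblet-like, 3.26 and 8.54 CPM in deep crypt secretory-like and 15.7 and 10.2 CPM in crypt cells (log2 difference 2.07 ± 0.29). Cyp2f2, which activates naphthalene in club cells of the mouse lung, had a pooled ratio of 3.53 (2.10 to 6.10), from 51 UMIs in colonocyte-like cells and 22 in the other classes. Cyp2j6, of a subfamily with arachidonic acid epoxygenases, was spread more evenly. It had 82.6 and 75.7 CPM in colonocyte-like cells, against 74.5 and 78.9 CPM in goblet-like, 52.8 and 51.2 CPM in deep crypt secretory-like and 52.9 and 57.5 CPM in crypt cells. Colonocyte-like and goblet-like values of Cyp2j6 overlapped, and its log2 difference was 0.67 ± 0.16 (SE, adjusted p = 0.000238 by edgeR).

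A few P450 genes differed in level between the 2 colonocyte-like clusters. The first, led by Fabp6, Slc37a2 and Atp12a (307 and 117 barcodes), is called Slc37a2-rich here, and the second, led by Aqp8, Car1, Car4, Reg3g and Reg3b (238 and 62 barcodes), Aqp8-rich. In a separate fit of their 4 sums, 6 of the 24 tested members were called, 2 higher and 4 lower in the Slc37a2-rich cluster, or 25.0%, against 8.63% of 5541 tested genes, 4.13% higher and 4.49% lower. This fit had 1 residual degree of freedom, so its p-values rest largely on the spread pooled over genes.

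Cyp2f2 had 23.5 and 14.9 CPM in the Slc37a2-rich cluster, against 0.787 and 0 CPM in the Aqp8-rich cluster. That is 50 UMIs and 1 UMI, a pooled ratio of 34.1 (exact interval 5.85 to 1374). Cyp2f2 thus reached the 20 UMIs asked for only through the cluster where it was high, and the count of calls between the clusters includes it. Cyp2d22 had 61.6 and 33.3 CPM in the Slc37a2-rich cluster, against 27.5 and 15.1 CPM in the Aqp8-rich cluster, a log2 difference of 1.09 ± 0.30 (SE, adjusted p = 0.00481 by edgeR). The Cyp2d22 call was lost without the block and with barcodes under 10% mitochondrial UMIs only. Cyp2c55 had 33.0 and 26.4 CPM in the Slc37a2-rich cluster, against 243 and 232 CPM in the Aqp8-rich cluster, a log2 difference of -3.03 ± 0.19 (SE, adjusted p = 1.97e-52 by edgeR). In barcodes thinned to 1500 UMIs, it was seen in 4.53% and 3.64% of Slc37a2-rich cells, against 23.9% and 23.7% of Aqp8-rich cells. T cell-like cells had it in 1 of 29 and 0 of 7 thinned barcodes.

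Cyp2c65 had 26.1 and 27.6 CPM in the Slc37a2-rich cluster, against 92.9 and 70.6 CPM in the Aqp8-rich cluster (log2 difference -1.74 ± 0.25). Cyp4f14 had 355 and 279 CPM in the Slc37a2-rich cluster, against 685 and 451 CPM in the Aqp8-rich cluster (log2 difference -0.93 ± 0.12), and this call was lost without the block. Cyp3a13 had 212 and 161 CPM in the Slc37a2-rich cluster, against 310 and 199 CPM in the Aqp8-rich cluster. Its difference of -0.54 ± 0.14 (SE, adjusted p = 0.00263 by edgeR) lost its call with DESeq2, without the block, without the filter on low counts, with thinned sums, without the doublet filter and with barcodes under 10% mitochondrial UMIs. The values of Cyp3a13 overlapped between clusters, while those of Cyp2c55, Cyp2c65 and Cyp4f14 did not. Cyp2d10 (difference 0.57 ± 0.24, adjusted p = 0.142 by edgeR), Cyp2d34 (-0.35 ± 0.18, adjusted p = 0.252) and Cyp3a11 (-0.02 ± 0.25, adjusted p = 0.986) were not called.

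**Figure D3:**
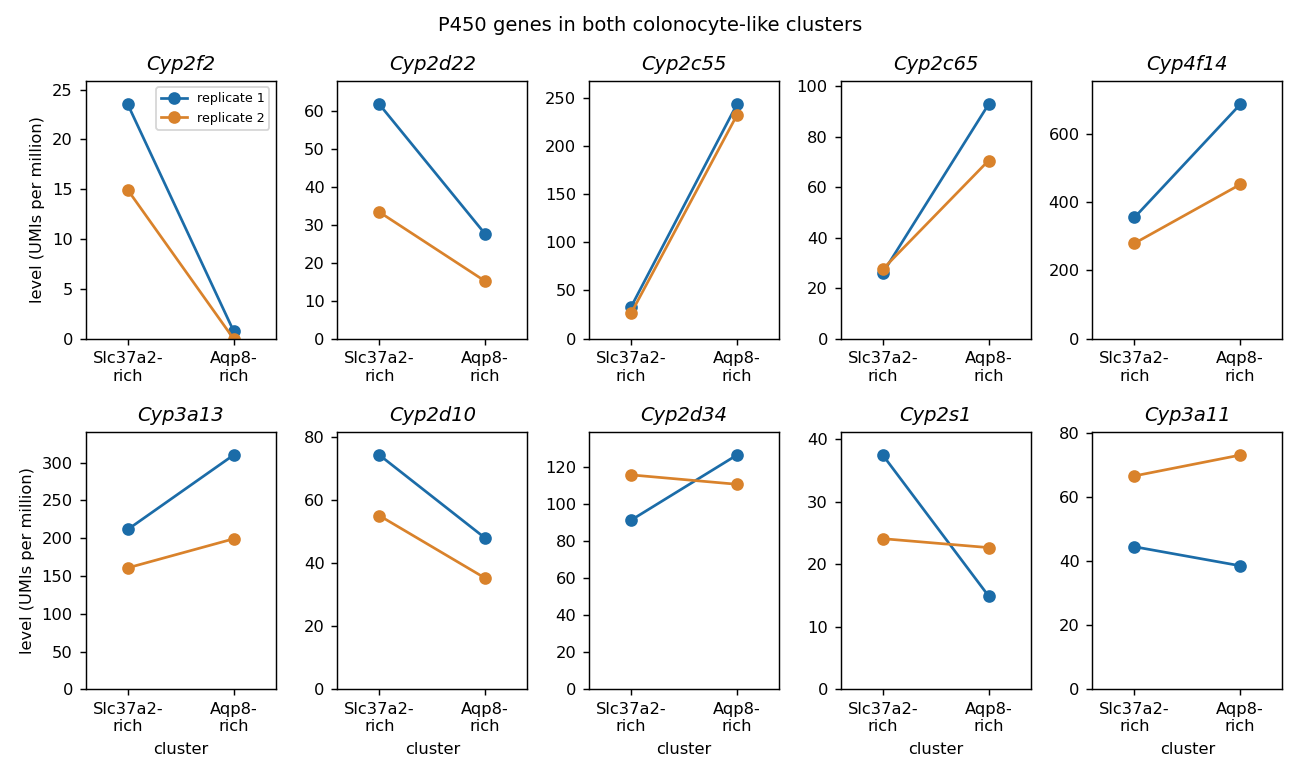
CPM of 10 P450 genes in the Slc37a2-rich (left) and Aqp8-rich (right) colonocyte-like cluster, with a line for each library. Cyp2f2 and Cyp2d22 are higher on the left in both libraries, and Cyp2c55 (33.0 and 26.4 against 243 and 232 CPM) and Cyp2c65 are lower.

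When only barcodes with at least 2000 UMIs were clustered, colonocyte-like cells fell into 3 clusters. Their marker levels set them apart as Slc37a2-rich (208 and 69 barcodes), Aqp8-rich (146 and 44) and Reg3-rich, with Reg3b at 2573 and 996 CPM in the last. Cyp2c55 had 22.4 and 14.0 CPM in the Slc37a2-rich, 254 and 242 CPM in the Aqp8-rich and 127 and 47.2 CPM in the Reg3-rich cluster. Cyp2c65 had 5.16 and 14.0 CPM in the Slc37a2-rich, 76.1 and 62.8 CPM in the Aqp8-rich and 119 and 59.6 CPM in the Reg3-rich cluster, so the Aqp8-rich and Reg3-rich values overlapped. Cyp2d10 was lowest in the Reg3-rich cluster, with 103 and 80.0 CPM in the Slc37a2-rich, 44.0 and 53.8 CPM in the Aqp8-rich and 4.94 and 7.45 CPM in the Reg3-rich cluster. Cyp2d34 likewise had 118 and 168 CPM in the Slc37a2-rich, 135 and 132 CPM in the Aqp8-rich and 36.2 and 42.2 CPM in the Reg3-rich cluster. Cyp4f14 had 383 and 280 CPM in the Slc37a2-rich, 703 and 485 CPM in the Aqp8-rich and 450 and 278 CPM in the Reg3-rich cluster. Cyp3a13 had 237 and 190 CPM in the Slc37a2-rich, 329 and 248 CPM in the Aqp8-rich and 193 and 104 CPM in the Reg3-rich cluster. Both genes were thus lower in the Slc37a2-rich than in the Aqp8-rich cluster in each library, and Cyp3a13 was lowest in the Reg3-rich cluster. Against the mean of the other 2 clusters, which is another comparison than that of the 2-cluster fit, the Slc37a2-rich cluster had a log2 difference of -0.39 ± 0.13 for Cyp4f14 (SE, adjusted p = 0.101 by edgeR) and of 0.14 ± 0.15 for Cyp3a13 (adjusted p = 0.796). The CPM values of single clusters are descriptions without a test.

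In goblet-like cells 5 members were called higher and 1 lower, or 18.2%, against 17.1% of all tested genes, 10.2% called higher and 6.96% lower. The median log2 difference of the members was 0.12, against -0.02 over all genes, and was -0.17 with pooled ratios entered for the 13 genes at 3 or fewer UMIs in a class, so its sign depends on those genes. Cyp1a1, the classic target of the aryl hydrocarbon receptor, had 16.9 and 30.1 CPM in goblet-like cells, against 1.05 and 0 CPM in colonocyte-like, 0 and 5.12 CPM in deep crypt secretory-like and 1.30 and 0 CPM in crypt cells. These are 41 UMIs in goblet-like cells and 8 in the other 3 classes together, a pooled ratio of 21.3 (9.87 to 52.6), and edgeR's adjusted p was 3.88e-13. Cyp1a1 reached the 20 UMIs asked for only through goblet-like cells, so its call and p-value are not independent of that selection. The UMIs came from 22 of 272 goblet-like barcodes in replicate 1 and 14 of 72 in replicate 2. In thinned barcodes the shares were 3.14% and 4.35%, against 0.605% and 0% of colonocyte-like cells and 0 of 29 and 0 of 7 T cell-like cells, a number too small to set a background. Cyp1a2, another aryl hydrocarbon receptor target, had 9 UMIs in all and was not tested, and Cyp1b1 had 43 UMIs and no call in any class.

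The reference of this comparison includes the colonocyte-like cells, in which many members were far higher. Cyp2d34 was called higher in goblet-like cells than the mean of the log2 levels of the 3 classes, although colonocyte-like cells had more of it and its pooled ratio was 0.887 (0.707 to 1.1). When colonocyte-like cells were left out of the reference, an alternative added after the data had been seen, 11 members were called higher in goblet-like cells and 0 lower, against 24.0% of all genes called, 12.7% higher and 11.3% lower. Among them were all 6 tested Cyp2d genes, with differences of 2.35 ± 0.40 (SE) for Cyp2d10 and 1.41 ± 0.53 for Cyp2d22. The other 5 were Cyp1a1, Cyp2j6 (0.91 ± 0.20), Cyp3a13 (1.24 ± 0.33), Cyp3a16 and Cyp4f13 (1.56 ± 0.47). The calls of Cyp2d9 and Cyp2d26 rest on few UMIs. Cyp2d9 had 7 UMIs in goblet-like, 4 in deep crypt secretory-like and 0 in crypt cells. Cyp2d26 had 6, 0 and 4 UMIs in these classes. Their fitted differences (3.31 ± 1.07 and 3.15 ± 1.19) depend on the class at 0 UMIs. Both genes reached the UMIs that the test asked for only through colonocyte-like cells. With colonocyte-like cells in the reference, Cyp4f14 was called lower in goblet-like cells (log2 difference -1.19 ± 0.29), and without them its difference was 0.60 (adjusted p = 0.20 by edgeR).

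Colonocyte markers were present in goblet-like cells at 24.5% of their summed colonocyte-like level in replicate 1 and 29.3% in replicate 2. Cyp4f14 stood at 3.64% and 3.39% of its colonocyte-like level in goblet-like cells, Cyp2c55 at 1.07% and 4.14%, and Cyp3a13 at 9.54% and 8.70%. Cyp2d34 stood at 48.0% and 39.4%, Cyp2d10 at 28.1% and 57.6%, and Cyp2j6 at 90.2% and 104%. The share of the colonocyte-like level thus differed between these genes, and for Cyp2d10 between libraries. The part of free RNA or doublets in these shares was not tested. The Cyp2d10 call in goblet-like cells (log2 difference 1.08 ± 0.34, or 2.28 without replicate 1 and 0.61 without replicate 2) was lost without the block and without the doublet filter. Cyp2d12 and Cyp2j6 (0.58 ± 0.18) were also called higher in goblet-like cells, and both calls were lost without the block and with thinned sums. The Cyp2j6 call was lost with DESeq2 and without the doublet filter too.

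**Figure D4:**
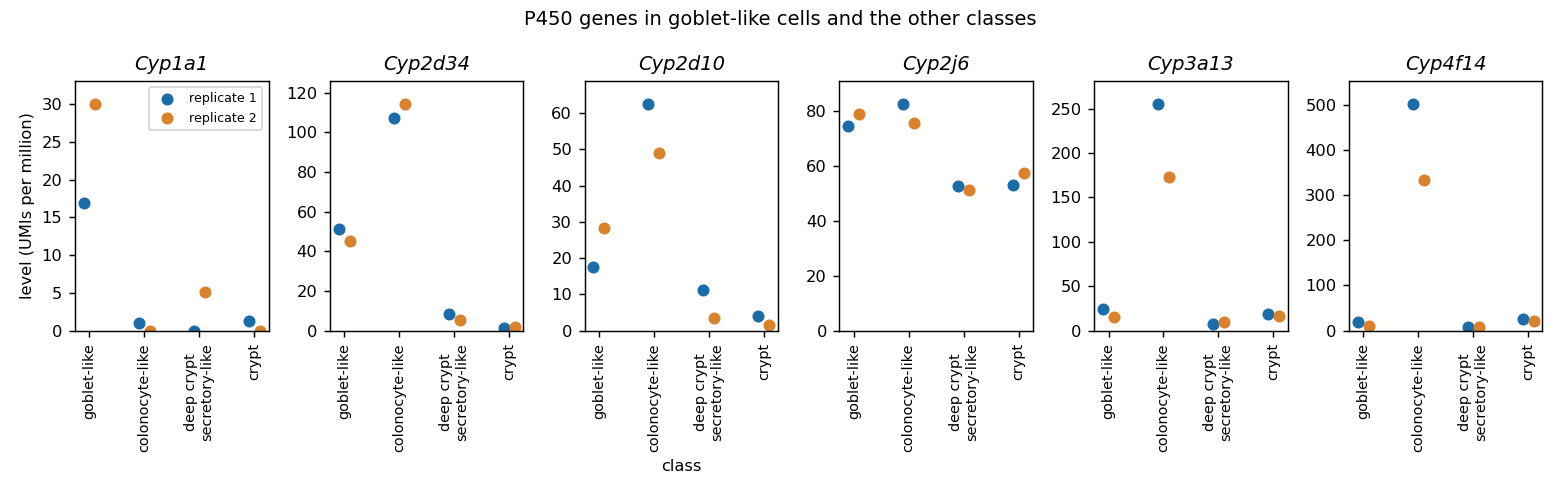
CPM of 6 P450 genes in goblet-like, colonocyte-like, deep crypt secretory-like and crypt cells, with 1 point per library. Cyp1a1 is highest in goblet-like cells (16.9 and 30.1 CPM), Cyp2d34 and Cyp2d10 are intermediate there, and Cyp3a13 and Cyp4f14 are far below the colonocyte-like level.

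In deep crypt secretory-like cells 0 members were called higher and 10 lower, or 30.3%, against 21.9% of all genes, 12.4% called higher and 9.5% lower. The median log2 difference of the members was -0.64, against 0.06 over all genes, and -0.81 with pooled ratios entered. Among called genes with more than 3 UMIs in every class, the largest differences were those of Cyp4f14 (-2.89 ± 0.30) and Cyp3a13 (-2.64 ± 0.32, or -1.98 without replicate 1). Next came Cyp2s1 (-1.61 ± 0.47, or -0.82 without replicate 1), Cyp2d22 (-1.37 ± 0.50), Cyp3a11 (-0.81 ± 0.26), Cyp4f16 (-0.71 ± 0.27) and Cyp2j6 (-0.59 ± 0.19). Cyp2d26 had 0 UMIs in deep crypt secretory-like cells. With 3 counts over the group as the floor, its level was 3.0-fold lower there, and the exact interval of its pooled ratio reached up to 0.432. Cyp2c55 and Cyp2d34 were at pooled ratios of 0.0160 (0.00194 to 0.0582) and 0.112 (0.0638 to 0.184). Without colonocyte-like cells in the reference, only the calls of Cyp3a13 (-1.39 ± 0.37) and Cyp4f14 (-1.31 ± 0.36) were kept, against 9.9% of all genes called, 5.79% higher and 4.11% lower. With colonocyte-like cells in it, DESeq2 lost the calls of Cyp2c55, Cyp2d22, Cyp2s1, Cyp3a11 and Cyp4f16, and the fit without the block lost those of Cyp2d22, Cyp2j6, Cyp3a11 and Cyp4f16. Colonocyte markers stood at 5.59% and 6.23% of their colonocyte-like level in this class.

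In crypt cells 1 member was called higher and 12 lower, or 39.4%, against 28.7% of all genes, 14.8% called higher and 13.9% lower. The median log2 difference of the members was -0.67, against -0.01 over all genes, and -0.84 with pooled ratios entered. Several Cyp2d genes were at or near 0 UMIs. Cyp2d9 had 0 UMIs in crypt cells, against 139 in the other classes. With 3 counts as the floor its level was 11.9-fold lower there, and the exact interval of its pooled ratio reached up to 0.104. Cyp2d34 had 3 UMIs in crypt cells, a pooled ratio of 0.0206 (0.00423 to 0.0604), and Cyp2d12 had 1 UMI, a pooled ratio of 0.0746 (0.00185 to 0.435). Cyp2d10 and Cyp2d22 had log2 differences of -3.06 ± 0.45 and -1.97 ± 0.51 (SE). Cyp3a16 had 1 UMI, a pooled ratio of 0.0681 (0.00169 to 0.395). Calls with smaller differences were those of Cyp4f13 (-1.65 ± 0.48), Cyp2b19 (-1.43 ± 0.49), Cyp3a13 (-1.28 ± 0.29), Cyp4f14 (-1.10 ± 0.26), Cyp2c70 (-0.84 ± 0.32) and Cyp2j6 (-0.67 ± 0.19). Without the block the calls of Cyp2b19, Cyp2c70 and Cyp2j6 were lost, and without the doublet filter those of Cyp2c70, Cyp2j6, Cyp3a13, Cyp4f13 and Cyp4f14. DESeq2 lost the calls of Cyp2b19, Cyp2c70 and Cyp4f13.

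Cyp2b19, known from mouse skin, had 3.26 and 6.77 CPM in crypt cells, against 7.03 and 8.68 CPM in colonocyte-like, 6.77 and 18.8 CPM in goblet-like and 9.77 and 12 CPM in deep crypt secretory-like cells. Cyp2c50 was the member called higher, with 15 UMIs in crypt cells and 16 in the other classes (pooled ratio 3.64, 1.68 to 7.86), and this call was lost without the block. Without colonocyte-like cells in the reference, 6 members were called lower and 2 higher, against 23.8% of all genes called, 11.8% higher and 12% lower. The lower ones were Cyp1a1, Cyp2b19 (-1.53 ± 0.52), Cyp2d9, Cyp2d10 (-2.31 ± 0.51), Cyp2d34 and Cyp3a16, and the higher ones were Cyp2c50 and Cyp4f40. Cyp4f14 (difference 0.71, adjusted p = 0.0853 by edgeR) and Cyp3a13 (0.15, adjusted p = 0.825) had then no call and the opposite sign. Cyp4f14 also lost its call in crypt cells without the doublet filter, where its difference was 0.16. Within the crypt class, Cyp2d34 had 1.22 and 3.71 CPM in the cluster led by Reg3b, Csrp2 and Cftr, and 1.41 and 0 CPM in the cluster led by Top2a, Hmgb2 and Ube2c.

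Members without a call in any of the 4 classes were 9 of the 33 tested. Cyp4x1, known from brain, had 11.6 and 10.3 CPM in colonocyte-like, 7.45 and 20.7 CPM in goblet-like, 12.4 and 18.8 CPM in deep crypt secretory-like and 16.3 and 15.2 CPM in crypt cells. Cyp4v3, a fatty acid hydroxylase, had 9.14 and 7.10 CPM in colonocyte-like, 7.45 and 13.2 CPM in goblet-like, 11.1 and 5.12 CPM in deep crypt secretory-like and 11.7 and 5.08 CPM in crypt cells. The other 7 were Cyp2j5, Cyp2u1 (a long-chain fatty acid hydroxylase), Cyp2j13, Cyp1b1, Cyp2c68, Cyp2c38 and Cyp2r1 (a vitamin D hydroxylase), with 25 to 52 UMIs each.

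Too few UMIs for a test were found for 22 members, with 5 to 24 UMIs each and 293 in all. They include genes prominent in mouse liver, such as the ethanol-oxidising Cyp2e1 with 11 UMIs, the constitutive androstane receptor target Cyp2b10 with 10 UMIs, and Cyp4a10 and Cyp4a14, fatty acid hydroxylases under PPAR alpha, with 9 and 8 UMIs. The rest were Cyp1a2, Cyp2a4, Cyp2a5, Cyp2a22, Cyp2c29, Cyp2c37, Cyp2c40, Cyp2c44, Cyp2c66, Cyp2d11, Cyp2d40, Cyp2g1, Cyp2j9, Cyp3a25, Cyp4b1, Cyp4f15, Cyp4f37 and Cyp4f39. Together the 22 stood at 26.0 and 37.1 CPM in colonocyte-like, 10.2 and 35.7 CPM in goblet-like, 12.4 and 41.0 CPM in deep crypt secretory-like and 12.4 and 30.5 CPM in crypt cells, ranges that overlap. Cyp2c66, Cyp2d11 and Cyp2b10 are picked out after their values were seen. Cyp2c66 had 15 UMIs in colonocyte-like cells and 3 in the other classes (pooled ratio 7.60, 2.15 to 41.0), and Cyp2d11 had 10 and 1 (15.2, 2.16 to 660). Cyp2b10 went the other way, with 0 UMIs in colonocyte-like cells and 9 in the other classes. With 3 counts as the floor, its level was 1.97-fold lower in colonocyte-like cells, and the exact interval of its pooled ratio reached up to 0.770.

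Receptors that control P450 genes were a list of 22 genes, all tested, and in colonocyte-like cells 10 of them were higher and 2 lower. Of all tested genes, 20.9% were called higher and 19.4% lower in colonocyte-like cells, and 10.2% and 6.96% in goblet-like cells. The shares were 12.4% and 9.5% in deep crypt secretory-like cells and 14.8% and 13.9% in crypt cells. The counts of this and the following lists stand beside the shares of their own class. Nr1i2, the pregnane X receptor, had 70.7 and 60.7 CPM in colonocyte-like cells, against 22.5 to 40.6 CPM in the sums of the other classes (log2 difference 1.46 ± 0.18). Nr1i3, the constitutive androstane receptor, had 184 and 151 CPM in colonocyte-like cells, against 61.5 to 157 CPM in the other sums (1.23 ± 0.14), and its partner Rxra had 67.1 and 49.7 CPM (2.39 ± 0.22). Hnf4a, a factor of hepatic and gut P450 transcription, had 565 and 444 CPM in colonocyte-like cells (1.52 ± 0.10). Nr1h4, Vdr, Pparg, Nr3c1, Nfe2l2 and Ppard were the other higher genes, and Rxrb was lower. Ahr, the aryl hydrocarbon receptor, was the second lower one, with 14.1 and 22.1 CPM in colonocyte-like cells, against 23.7 and 18.8 CPM in goblet-like, 34.5 and 59.8 CPM in deep crypt secretory-like and 59.4 and 69.4 CPM in crypt cells (-0.97 ± 0.23). In crypt cells Ahr was called higher (0.97 ± 0.21), as were Keap1, Rxrb, Rxrg and Vdr, while Nr1h3 and Nr1h4 were lower. Cyp1a1 was thus highest in goblet-like cells and Ahr in crypt cells. Goblet-like cells had 1 receptor gene higher (Nr1h3) and 3 lower, and deep crypt secretory-like cells had 1 higher (Arnt) and 8 lower.

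Of 3 other tested targets of the aryl hydrocarbon receptor, Gsta1 and the quinone reductase Nqo1 were higher in colonocyte-like cells and Tiparp was called in no class. Both Gsta1 and Nqo1 were called lower in deep crypt secretory-like cells. Nqo1 had 52.9 and 45.7 CPM in crypt cells, against 26.4 and 22.9 CPM in colonocyte-like, 4.06 and 3.76 CPM in goblet-like and 5.21 and 6.83 CPM in deep crypt secretory-like cells. It was lower in goblet-like cells (-2.00 ± 0.47) and higher in crypt cells (2.25 ± 0.28). In the same comparisons Cyp1a1 was called higher in goblet-like cells and was not called in crypt cells. With 3 or fewer UMIs in each class other than goblet-like cells, Cyp1a1 gives no order among those classes.

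Genes that supply P450s with electrons and NADPH were 15, all tested, and 6 of them were called higher in colonocyte-like cells and 1 lower, against 40.3% of all tested genes called in either direction. Por, the NADPH-P450 reductase, had 42.9 and 41.8 CPM in colonocyte-like cells, against 15.6 and 15 CPM in goblet-like, 26.7 and 34.1 CPM in deep crypt secretory-like and 20.9 and 16.9 CPM in crypt cells (1.30 ± 0.21). Me1, malic enzyme, had the largest difference of the list (2.67 ± 0.39), and Pgd, Cyb5r4, G6pdx and Cyb5b were also higher, while Pgrmc2 was lower. Goblet-like cells had 1 higher (Cyb5r3) and 2 lower, deep crypt secretory-like cells 1 higher (Fdx1) and 2 lower, and crypt cells 2 higher (Cyb5r1 and Idh1) and 2 lower (Cyb5r3 and Por).

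Haem pathway genes did not move together. In colonocyte-like cells 2 of the 13 tested were called higher and 3 lower, near the 40.3% of all genes. Alas1, the first and rate-limiting enzyme of haem synthesis outside red cells, had 87.5 and 86.0 CPM in colonocyte-like cells, against 22.3 to 49.1 CPM in the sums of the other classes (1.58 ± 0.17). It was lower in the Slc37a2-rich than in the Aqp8-rich cluster (-0.77 ± 0.19). The later enzyme Cpox was lower in colonocyte-like cells, at 7.03 and 5.52 CPM in them, against 28.2 to 58.1 CPM in the other classes (-2.45 ± 0.28). Blvrb was the other higher gene, and Slc48a1 was also lower. Deep crypt secretory-like cells had 5 higher, Cpox, Urod, Hmox1 and Slc48a1 among them, and 1 lower, crypt cells had 3 higher and 2 lower, and goblet-like cells had 0 higher and 2 lower.

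Epoxide and eicosanoid metabolism was read from 13 tested genes, and in colonocyte-like cells 4 of these were called higher and 2 lower, again near the 40.3% of all genes. The prostaglandin-oxidising Hpgd had 322 and 218 CPM in colonocyte-like cells (2.18 ± 0.13), and the phospholipase Pla2g4a, which releases arachidonic acid, had 157 and 189 CPM (1.55 ± 0.14). Cbr1 and the soluble epoxide hydrolase gene Ephx2 (1.54 ± 0.27) were the others, and Ephx1 and Ephx3 were lower. Goblet-like cells had 1 higher (Ephx3) and 2 lower, deep crypt secretory-like cells 1 higher (Ephx4) and 2 lower, and crypt cells 3 higher (Alox15, Ephx1 and Ptgs2) and 1 lower. Pla2g4a was lower in the Slc37a2-rich than in the Aqp8-rich cluster (-1.33 ± 0.15), as Cyp2c55 and Cyp2c65 were.

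P450 genes of the other families were a list of 18 matched genes, of which 8 were tested. In colonocyte-like cells 0 of the 8 were called higher and 2 lower, against 20.9% and 19.4% of all genes. The list is too short to set its shares apart from those. Cyp26b1, which degrades retinoic acid, had 21.7 and 52.6 CPM in goblet-like cells, against 2.46 and 2.37 CPM in colonocyte-like, 6.51 and 13.7 CPM in deep crypt secretory-like and 9.79 and 11.8 CPM in crypt cells (2.60 ± 0.33). Cyp51, of cholesterol synthesis, was also higher in goblet-like cells (0.96 ± 0.12), and so was Cyp27a1 (1.82 ± 0.51), while both were lower in crypt cells. Cyp39a1, an oxysterol hydroxylase, had 65.2 and 40.6 CPM in crypt cells, against 0 to 17.1 CPM in the other sums (2.46 ± 0.27), and was lower in goblet-like cells (-2.04 ± 0.47). Cyp20a1 was higher in deep crypt secretory-like cells (1.21 ± 0.19) and lower in colonocyte-like cells (-1.96 ± 0.23).

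Cyp3a11 moved with the share of mitochondrial UMIs of a barcode over all kept barcodes, unnamed ones included. In replicate 1 it had 22.5 CPM in barcodes with under 5% mitochondrial UMIs, 26.4 CPM at 5% to 10%, 69.7 CPM at 10% to 20% and 162 CPM at 20% or more (exact Poisson interval 114 to 223). In replicate 2 it had 26.9, 43.5, 63.8 and 135 CPM (98.9 to 179) over the same bins. All other members together had 599, 967, 1090 and 868 CPM in replicate 1 and 521, 606, 1018 and 730 CPM in replicate 2. These totals include mitochondrial UMIs, which lowers the CPM of all other genes most in the last bin. On totals without mitochondrial UMIs, Cyp3a11 had 80.6 and 73.4 CPM at 10% to 20%, and 241 and 202 CPM in the last bin. Whether the other members also rise to the last bin on such totals was not tested. Within colonocyte-like cells of replicate 1, Cyp3a11 had 35.4, 36.9, 69.4 and 93.5 CPM over these bins. The last value rests on 10 UMIs (44.8 to 172), and its interval overlaps that of the first bin (25.6 to 47.7). In colonocyte-like cells of replicate 2 it had 59.8 CPM at 5% to 10% (41.2 to 84.0), 73.8 CPM at 10% to 20% and 95.4 CPM at 20% or more (52.1 to 160), with overlapping intervals. The median mitochondrial share was 6.17% and 11.3% in colonocyte-like cells, against 3.06% to 8.06% in the other sums. The part of this share in the Cyp3a11 differences was tested only by keeping barcodes under 10%, where its call in colonocyte-like cells was kept and that in deep crypt secretory-like cells was lost.

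**Figure D5:**
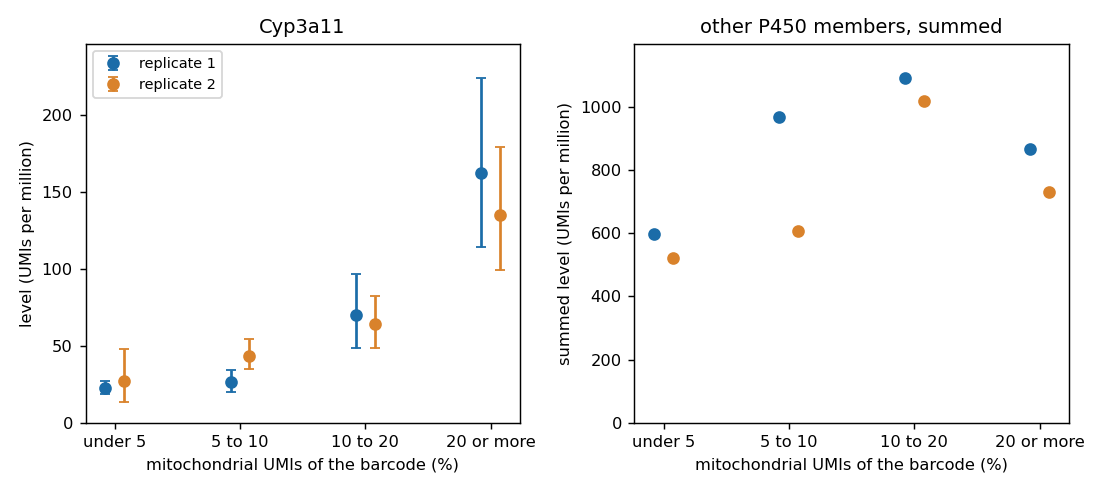
Left, CPM of Cyp3a11 in barcodes binned by their share of mitochondrial UMIs, with exact Poisson intervals for counting error and 1 point per library. Right, the summed CPM of the other 54 members in the same bins. Cyp3a11 rises to 162 and 135 CPM in the last bin. The other members have lower CPM there than at 10% to 20%, on totals that include mitochondrial UMIs.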

How the data were processed

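The deposited tables hold UMI counts per gene and barcode, whole numbers without normalization. Per the submitters' processing notes, the builds were GRCh38 and GRCm38. The sources used here do not name the aligner, annotation, strand setting or barcode filter. K562 cells were not analysed here. No coordinates or sequences are given.

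All barcodes passed the minimum of 500 UMIs and 250 genes. The 5% with the highest doublet score (simulated pairs among 50 neighbours) were left out (87 barcodes of replicate 1 and 34 of replicate 2). A hash (md5) of the gene symbol split the genes, 12701 for clustering and 12803 for readout; P450, list and mitochondrially encoded genes were readout genes and markers clustering genes. Co-regulated genes fall on both sides, so tests are not independent of the clustering. The 1500 most variable clustering genes gave 30 components and Leiden clusters at resolution 1 (leidenalg 0.10.2, Python 3.11.15). Of 11 clusters, 8 were named from marker scores, by a rule settled after the clusters were seen.

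UMIs were summed per library and class, giving 8 sums. Readout genes with at least 20 UMIs were tested with edgeR 4.0.16 (R 4.3.3, glmQLFit and glmQLFTest, TMM), with the library as a block, since all classes come from the same libraries. The pairing is by construction. The class fit had 3 residual degrees of freedom. The 4 comparisons share sums and are not independent. CPM are UMIs of a sum divided by its total. DESeq2 1.42.0 and other alternatives are in the closing section. Members with at least 100 UMIs are given by class and library, others where a test called them, and list genes where they passed the test; a few list genes are not reported here. The P450 members and all lists were chosen with earlier results of these data known. Intervals and limits for a count of 0 cover counting error only, at 95% and 3 counts.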

Additional observations from a re-analysis of the deposited data

Results flagged for a closer look

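The values below come from clusters that no comparison of classes or colonocyte-like clusters used. In each the exact Poisson interval, which covers counting error only, lies above the level of the highest of the 4 epithelial classes. No explanation was tested. Cyp3a11 stood at 213.7 CPM (155 to 287, 44 UMIs) in an unnamed cluster of 95 barcodes with a median of 44.1% mitochondrial UMIs, against 50.1 CPM in the highest class. These barcodes are among those binned by mitochondrial share above, so this value is not separate from the rise of Cyp3a11 over those bins. Cyp4x1 stood at 139.6 CPM (38.0 to 358) in the tuft-like cluster, which is 4 UMIs in 12 barcodes, against 16 CPM in the highest class. Cyp2b19 stood at 43.5 CPM (16 to 94.7, 6 UMIs) in an unnamed cluster of 30 barcodes, against 10.4 CPM in the highest class.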

How the results depend on the processing

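The 55 calls of P450 genes were recomputed under each alternative, which gave 603 values: 485 kept sign and call (or, for values without a test, lay within 1 SE), 75 lost the call, 38 without a test moved by more than 1 SE, and 5 changed sign. The sign changes were Cyp4f14 in crypt cells without the doublet filter (0.16), Cyp3a13 in the Slc37a2-rich cluster with barcodes of at least 2000 UMIs (0.14), where a further, Reg3-rich cluster joined the comparison, and, without colonocyte-like cells in the reference, Cyp4f14 in goblet-like (0.60) and crypt cells (0.71) and Cyp3a13 in crypt cells (0.15). Against the Aqp8-rich cluster alone Cyp3a13 kept its direction, and the last 3 follow from the reference; the cause of the other was not tested. DESeq2 size factors in place of TMM changed no call.

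Counts of all genes called moved as follows. In colonocyte-like cells (3245) they were 2081 with DESeq2 and 2139 with sums thinned to equal depth. In goblet-like cells (1379) they were 884 with DESeq2. In deep crypt secretory-like cells (1763) they were 1105 with DESeq2, where 46.6% and not 56.6% of the calls were higher, and 798 without colonocyte-like cells in the reference. In crypt cells (2311) they were 1411 with DESeq2. Between the colonocyte-like clusters (478) they were 132 with DESeq2, 315 with thinned sums, 214 without the doublet filter, 262 with barcodes of at least 2000 UMIs (against 2 other clusters) and 168 with barcodes under 10% mitochondrial UMIs.

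Counts of members called in deep crypt secretory-like cells (10) were 4 with DESeq2, 5 with thinned sums, 5 with barcodes under 10% mitochondrial UMIs and 2 without colonocyte-like cells in the reference. In crypt cells (13) they were 8 with DESeq2 and 8 without colonocyte-like cells, in goblet-like cells (6) 11 without colonocyte-like cells, and between the colonocyte-like clusters (6) 3 with DESeq2. In colonocyte-like cells (20) they were 15 to 23 under the alternatives, beside 2081 to 3328 of all genes.

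Without the replicate block, all genes called were 726 in goblet-like, 991 in deep crypt secretory-like and 1453 in crypt cells, and 53 between the colonocyte-like clusters, of which 35.8% were higher, against 47.9% with the block. The 3-cluster comparison of barcodes with at least 2000 UMIs had 67.6% higher. Members called without the block were 3 in goblet-like and 6 in deep crypt secretory-like cells, and 3 between those clusters.

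Leaving out 1 library gave 99 values, none with a change of sign; 19 moved by over 1.5-fold, 13 of them, for Cyp1a1, Cyp2c55, Cyp2d9, Cyp2d12, Cyp2d26, Cyp2d34, Cyp2f2 and Cyp3a16, in genes with 3 or fewer UMIs in a class, whose fitted values depend on the prior count. Alternatives with under 10% mitochondrial UMIs and without colonocyte-like cells were chosen after seeing the data. Depth limits members under 20 UMIs, which were not tested.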
